A study of Homo sapiens with 18 samples.

Results

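Vesicles of JinB8 cells were set against vesicles of Jurkat cells, both captured through CD63, in HUVEC, endothelial cells cultured from the human umbilical vein. The comparison rests on 6 of the 18 arrays of the study, 3 per group, chosen by the bracketed code in each sample name. Cells of the JinB8 group had been kept for 3 days with bead-captured extracellular vesicles (EVs) of JinB8, a line derived from Jurkat and deficient in the receptor CD47. Cells of the Jurkat group had been kept for 3 days with CD63-captured EVs of Jurkat, a human T cell leukaemia line that carries CD47. The remaining 12 arrays hold JinB8 MHC1+ EVs, Jurkat MHC1+ EVs (both captured through MHC class 1), beads with immunoglobulin G (IgG) alone, and untreated cells, 3 each. All HUVEC came from ATCC, carried no stated genetic change and are called a normal endothelial line in the labels. Donor T cells had released their EVs overnight into serum-free HITES medium. The concentrated medium of several flasks per line was pooled before EVs were purified, so the labels give no separate EV preparation for each array.

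For 2 of the 3 JinB8 CD63+ arrays and all 3 JinB8 MHC1+ arrays the free text numbers the line differently, although the bracketed code reads JinB8 for each, and they were taken as JinB8. The labels do not say whether a group's 3 arrays are separate cultures, so the p-values speak only of spread among these arrays, which may be technical. The RNA kit named in the sample labels differs from the one named for the series, and no label gives a batch.

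EVs are membrane particles that cells shed, and they can carry RNA, proteins and lipids to other cells. CD63 is a tetraspanin enriched on vesicles that form inside endosomes. CD47 is a receptor for thrombospondin-1, through which it restrains nitric oxide signalling in endothelium, and it shields cells from phagocytes by binding SIRPA. The comparison asks whether CD63+ EVs of the CD47-deficient line and of its parent line differ in what they do to endothelial RNA levels. The absence of CD47, other differences between the lines and differences between EV preparations cannot be told apart here.

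All values are log2 RMA signals, on which a difference of 1 is 2-fold. Differences are JinB8 minus Jurkat with the SE of a limma model of 16 arrays, since untreated replicate 3 and IgG bead replicate 3 stood apart from all others (median Pearson's r with the other 16 arrays of 0.647 and 0.635) and were left out of the fit. Within the JinB8 CD63+ group the arrays correlated at 0.974 to 0.982, and within the Jurkat CD63+ group at 0.988 to 0.992. JinB8 replicate 2 correlated with Jurkat replicate 3 at 0.993, which is higher than with either array of its own group. The median SD of a gene was 0.206 in the JinB8 CD63+ group and 0.127 in the Jurkat CD63+ group. The SD over all probe sets of an array, a measure of how far apart high and low signals lie, was 2.12, 2.19 and 2.05 in the JinB8 CD63+ arrays and 2.16, 2.18 and 2.20 in the Jurkat CD63+ arrays.

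No gene passed the test. Of 18417 genes, 0 (0%) reached an adjusted p under 0.05 in limma with Benjamini-Hochberg adjustment, and the smallest adjusted p was 0.874. At an unadjusted p under 0.05 there were 740 genes (4.02%), of which 329 (1.79%) were higher and 411 (2.23%) lower with JinB8 EVs. With each array centred on its median, 514 were higher and 316 lower. Leaving out 1 of the 6 arrays moved this count between 326 (without Jurkat replicate 3) and 2492 (without JinB8 replicate 2). Over all genes the median difference was −0.017. Without the 25% of genes of lowest mean signal it was −0.061, and without the lowest 50% it was −0.11. In the latter set 266 genes were lower and 39 higher at an unadjusted p under 0.05. Medians of lists of brighter genes given below are to be read against these values too, also where they are not repeated. The 95% interval of the difference lay within 2-fold either way for 17793 genes (96.6%), and its median half-width was 0.35. The 3 arrays of each group did not overlap for 1723 genes (9.36%), 791 (4.29%) in the higher and 932 (5.06%) in the lower direction. The genes below are therefore given by their values, with no call on any of them. For each gene named below, the adjusted p of this comparison lies between 0.874 and 0.997.

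Among the genes with the smallest unadjusted p in the lower direction, SPAG5 and TCF19 are known from dividing cells. SPAG5, a spindle protein (chromosome 17), was at 4.60, 4.36 and 4.31 in the JinB8 arrays, against 5.49, 4.90 and 5.29 in the Jurkat arrays. All 3 JinB8 arrays lay below all 3 Jurkat arrays, and the difference was −0.80 ± 0.17 (95% interval −1.17 to −0.44, 1.75-fold). TCF19, a nuclear factor known as a gene of growing cells, was at 5.84, 5.38 and 5.59 in JinB8 arrays and at 6.31, 6.02 and 6.44 in Jurkat arrays. Here too the groups did not overlap, with a difference of −0.65 ± 0.15.

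The smallest p of all, 4.86e-05 unadjusted, belonged to RPS6P6, a pseudogene of a ribosomal protein whose probes may also read its parent gene. It was at 3.41, 3.50 and 3.52 in JinB8 arrays and at 4.21, 4.07 and 4.14 in Jurkat arrays (−0.66 ± 0.12). These signals are dim, below the array medians of 4.91 to 5.03, and may hold background. SLC12A9, a member of the cation-chloride cotransporter family, had a difference of −0.45 ± 0.11, also with no overlap. The histone H4 genes H4C14 and H4C15 had the largest difference among the 11 genes shown for their small p, at −1.10 ± 0.29 (2.14-fold). Their probe sets hold identical values, so they count as 1 measurement of near-identical copies. That measurement was uneven in the JinB8 group, with 4.47, 5.41 and 4.26, against 6.15, 5.56 and 5.73 in the Jurkat group.

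In the higher direction, STC1 had the smallest unadjusted p, 0.000587. STC1 encodes stanniocalcin-1, a secreted glycoprotein first known as a calcium-lowering hormone of fish. It was at 8.78, 8.84 and 8.72 in JinB8 arrays (8.78 ± 0.06, SD, n = 3), against 8.19, 8.28 and 8.21 in Jurkat arrays (8.23 ± 0.05, SD, n = 3). The groups did not overlap, the difference was 0.55 ± 0.13 (95% interval 0.28 to 0.82, 1.46-fold), and the limma adjusted p was 0.874. Means elsewhere were 7.67 with JinB8 MHC1+ EVs, 7.27 with Jurkat MHC1+ EVs, 6.60 with IgG beads and 6.79 in untreated cells, so both CD63+ groups lay above every other group. With MHC1 capture the JinB8 minus Jurkat difference of STC1 was 0.40 ± 0.13, and the difference between captures was 0.15 ± 0.18 (limma adjusted p = 0.547). Its relative STC2 was at 6.88, 6.89 and 6.75 with JinB8 EVs and at 6.98, 6.87 and 7.02 with Jurkat EVs, with overlap and a difference of −0.11 ± 0.12.

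The other genes at this end were of varied kinds. DIO3OS, a long noncoding RNA antisense to the DIO3 deiodinase gene, was at 6.40, 6.06 and 6.66 in JinB8 arrays and at 5.79, 5.85 and 5.56 in Jurkat arrays (0.64 ± 0.16). LCE3C, a late cornified envelope gene of skin, was at means of 4.55 and 3.90 (0.65 ± 0.17). The pseudogene NCOR1P1 was at 5.40 and 4.64 (0.76 ± 0.20) and the noncoding RNA LINC03042 at 4.26 and 3.76 (0.50 ± 0.14). ENPP5, of the nucleotide pyrophosphatase family, was at 3.55 and 3.05 (0.50 ± 0.14). Signals of LCE3C, LINC03042 and ENPP5 are dim, below the array medians of 4.91 to 5.03, and may hold background. The groups did not overlap for any of these 5. All 5 were also higher in untreated replicate 3 and IgG bead replicate 3 than in the other arrays of those groups, such as NCOR1P1 at 7.05 and 7.43. The cause was not tested. None of these 5 belongs to a gene list described below.

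**Figure D1:**
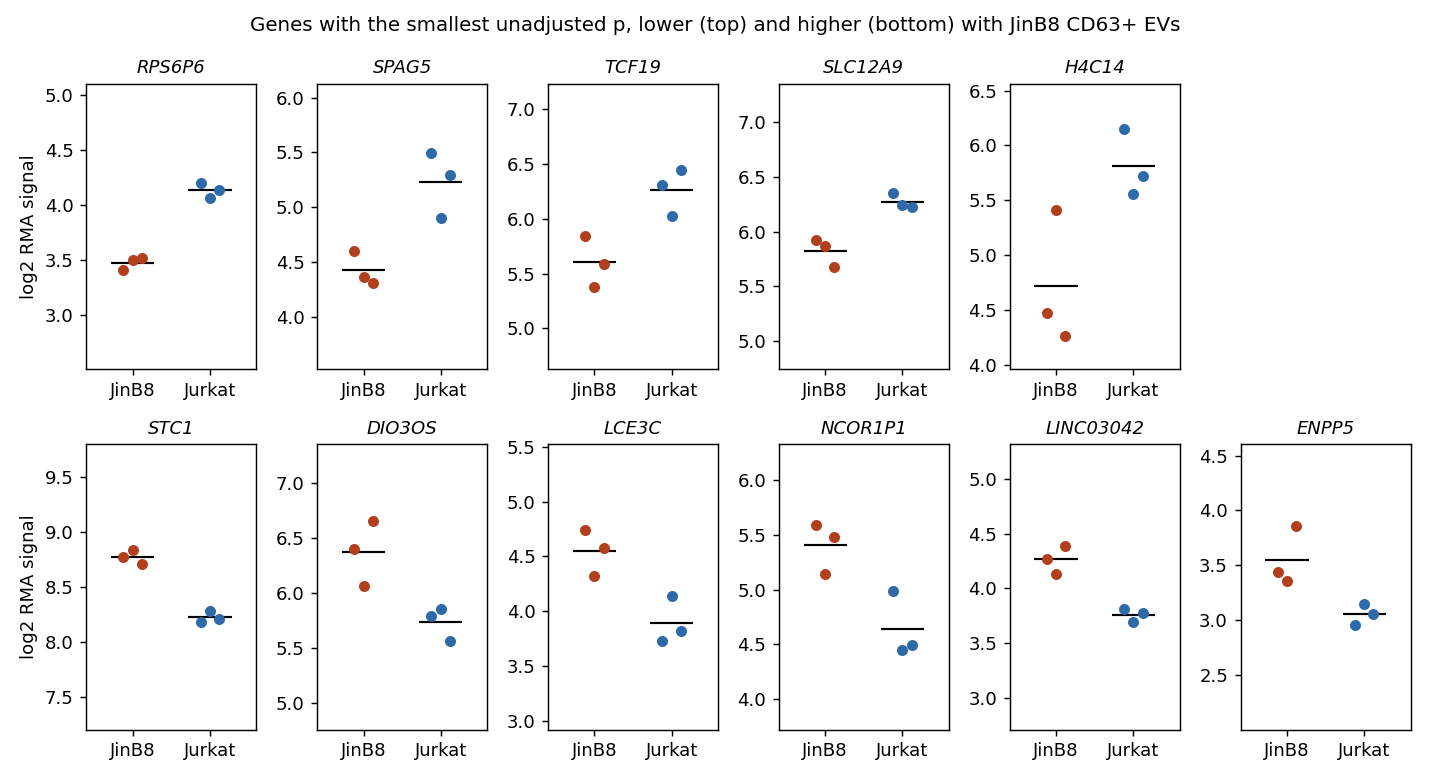
Log2 RMA signal of 11 genes with small unadjusted p, 5 lower (top row) and 6 higher (bottom row) with JinB8 CD63+ EVs; each point is 1 array, bars are group means, and each vertical axis has its own range of levels. H4C14 also stands for H4C15, which has the same values. Points of the groups do not overlap in any panel, and H4C14 shows the widest spread, with JinB8 arrays between 4.26 and 5.41.

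Genes of G2 and mitosis lay lower with JinB8 EVs as a list, with no member called. These genes drive chromosome condensation, spindle assembly and cytokinesis, and they are transcribed late in the cell cycle, so that their RNA marks dividing cells. Of 54 listed genes 53 were measured, and 52 of them had a difference below 0, where 53.3% of all genes did. Their median difference was −0.39, against −0.017 over all genes. At an unadjusted p under 0.05, 22 members were lower and 0 were higher, where 2.23% of all genes were lower. The arrays did not overlap for 28 members, all lower, against 5.06% of all genes. The list was chosen with earlier results of these data known.

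The list mean per array was 5.40, 5.47 and 5.25 in the JinB8 CD63+ group and 5.79, 5.56 and 5.88 in the Jurkat CD63+ group. Every JinB8 array was below every Jurkat array, and JinB8 replicate 2 and Jurkat replicate 2 were the nearest pair. The same genes averaged 5.46 with JinB8 MHC1+ EVs, 5.32 with Jurkat MHC1+ EVs, 6.02 with IgG beads and 5.93 in untreated cells. Every EV group, with either capture, thus had a lower mean than both control groups, whose means rest on 2 arrays each. By array, Jurkat CD63+ EVs overlapped the controls, which were at 6.24 and 5.80 with IgG beads and 5.82 and 6.04 untreated. The discordant arrays left out of these means were at 4.86 (IgG beads) and 4.81 (untreated), below every other array. The JinB8 CD63+ mean of 5.37 was close to both MHC1+ means, and the Jurkat CD63+ mean of 5.75 was the highest of the EV groups. In bulk RNA, fewer dividing cells and less of these RNAs per cell cannot be told apart. The array SD overlapped between the groups, with its lowest value in JinB8 replicate 3. With it as a covariate the median of the list was −0.25, with 44 members below 0. At an unadjusted p under 0.05, 16 were then lower, against 3.55% of all genes. Without JinB8 replicate 3 the median was −0.28, with 13 members lower against 1.13% of all genes. Without Jurkat replicate 3 it was −0.30, with 12 lower against 0.945%. Without Jurkat replicate 1 it was −0.32, with 14 lower against 1.34%. With all 18 arrays in the fit 2 members were lower, where 0.223% of all genes were.

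Among the regulators, MKI67, the gene of the Ki-67 proliferation marker, was at 6.81, 6.78 and 6.61 in JinB8 arrays, against 7.29, 7.20 and 7.47 in Jurkat arrays. No JinB8 array reached the Jurkat range, and the difference was −0.58 ± 0.17. FOXM1, the transcription factor that drives many mitotic genes, was at 6.33, 6.66 and 6.62 with JinB8 EVs and at 7.10, 6.78 and 7.21 with Jurkat EVs (−0.49 ± 0.15). CCNB1, the cyclin that activates CDK1 for entry into mitosis, was at 5.38, 5.74 and 5.35 in JinB8 arrays and at 6.05, 5.86 and 6.41 in Jurkat arrays (−0.62 ± 0.23). The S phase and G2 cyclin CCNA2 was at −0.50 ± 0.17. The kinases PLK1 and AURKB, which act on spindle and chromosome attachment, were at −0.39 ± 0.15 and −0.43 ± 0.17.

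Kinetochore genes build the plate on which chromosomes meet the spindle. CENPF, one of them, was at 5.97, 6.08 and 5.70 in JinB8 arrays and at 6.69, 6.52 and 6.54 in Jurkat arrays, apart by −0.67 ± 0.19. The kinetochore motor CENPE was at 5.00, 4.69 and 4.45 with JinB8 EVs, against 5.39, 5.42 and 5.31 with Jurkat EVs (−0.66 ± 0.21). NDC80, a microtubule-binding kinetochore subunit, was at −0.51 ± 0.18, and the checkpoint kinase BUB1 at −0.55 ± 0.26. The spindle midzone motor KIF4A had the lowest value of the list. It was at 5.27, 5.19 and 4.40 in JinB8 arrays and at 5.75, 5.98 and 5.50 in Jurkat arrays, a difference of −0.79 ± 0.24, and of −0.51 without JinB8 replicate 3. The motor KIF20A, which acts in cytokinesis, was at −0.73 ± 0.25 with overlap. DLGAP5, which stabilises spindle microtubules, was at −0.72 ± 0.24, and the DNA topoisomerase TOP2A at −0.49 ± 0.22. The single member above 0 was at 0.0032.

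**Figure D2:**
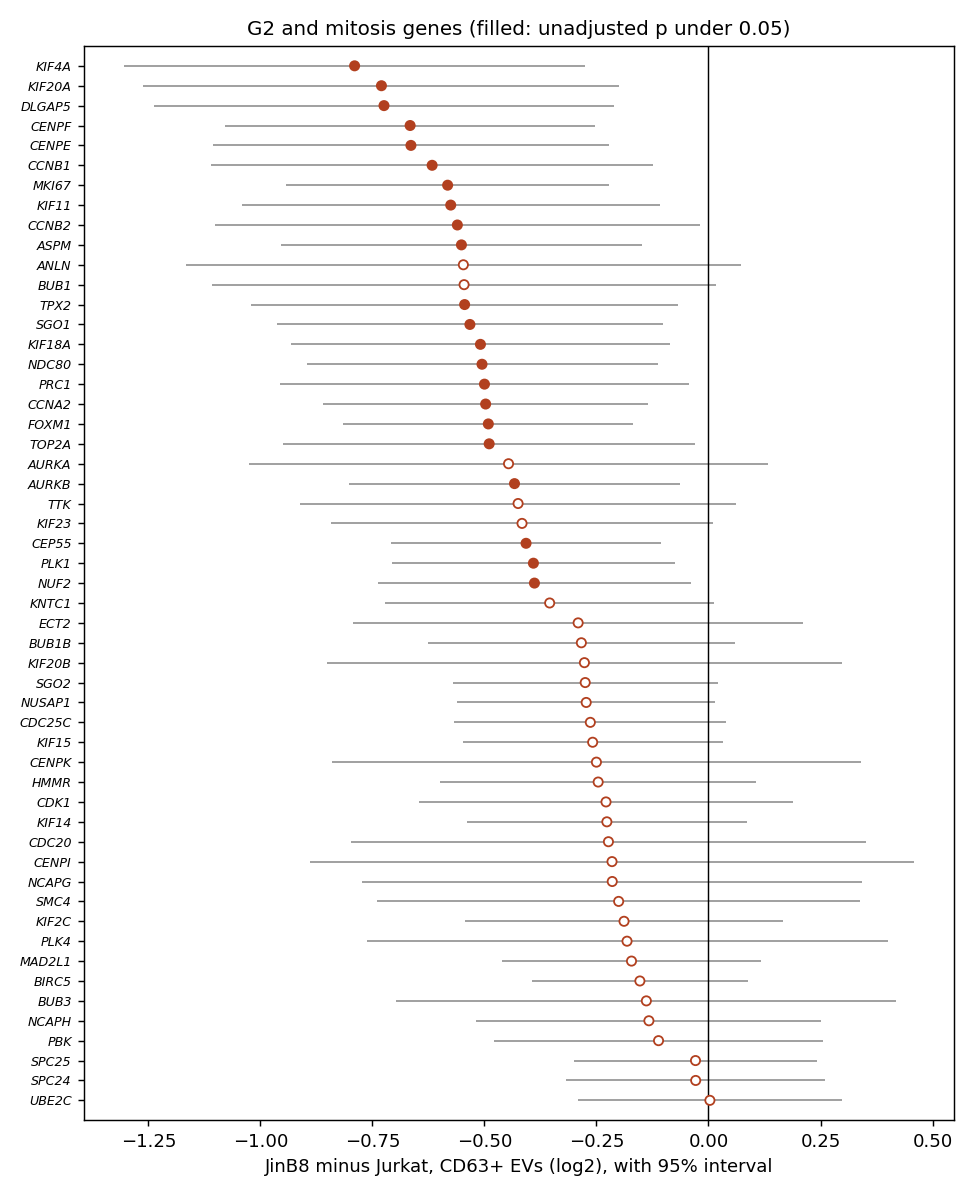
JinB8 minus Jurkat difference (log2 RMA, CD63+ EVs) of the 53 measured G2 and mitosis genes, with the 95% interval of the limma model; filled points have an unadjusted p under 0.05 (22 genes). The differences run between −0.79 for KIF4A and 0.0032, and 52 of 53 points lie left of 0.

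Promoters of such genes are known for CCAAT boxes and for the cell cycle genes homology region, whose core letters are TTTGAA. Windows from 250 bases before to 50 after the start site (RefSeq, GRCh38.p14) were matched for 44 of the 53 genes. CCAAT, read on both strands (also ATTGG), was in 32 of them (72.7%), against 35.7% of all 27305 windows. TTTGAA (also TTCAAA) was in 30 (68.2%), against 15.4% of all windows. Both were in 22 (50%), against 6.08%. The windows of the 3 members with the smallest unadjusted p are shown on the strand of the gene. They were picked by p alone, and all 3 carry both motifs, in capitals. The windows lie at chr10:128126374-128126673 on the minus strand for MKI67, at chr1:214602945-214603244 on the plus strand for CENPF and at chrX:70289854-70290153 on the plus strand for KIF4A.
MKI67: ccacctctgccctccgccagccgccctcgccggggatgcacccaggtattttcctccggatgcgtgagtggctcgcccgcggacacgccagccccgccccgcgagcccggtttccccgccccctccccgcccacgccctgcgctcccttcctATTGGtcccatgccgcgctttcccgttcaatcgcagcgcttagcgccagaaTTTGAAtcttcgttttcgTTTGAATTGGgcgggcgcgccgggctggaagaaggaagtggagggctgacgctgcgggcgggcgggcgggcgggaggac
CENPF: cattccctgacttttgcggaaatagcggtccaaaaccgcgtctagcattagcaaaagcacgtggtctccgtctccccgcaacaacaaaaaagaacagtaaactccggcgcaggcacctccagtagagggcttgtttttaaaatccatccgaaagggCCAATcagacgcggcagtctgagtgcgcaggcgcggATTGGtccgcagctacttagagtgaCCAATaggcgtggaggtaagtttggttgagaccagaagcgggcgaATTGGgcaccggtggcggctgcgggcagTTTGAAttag
KIF4A: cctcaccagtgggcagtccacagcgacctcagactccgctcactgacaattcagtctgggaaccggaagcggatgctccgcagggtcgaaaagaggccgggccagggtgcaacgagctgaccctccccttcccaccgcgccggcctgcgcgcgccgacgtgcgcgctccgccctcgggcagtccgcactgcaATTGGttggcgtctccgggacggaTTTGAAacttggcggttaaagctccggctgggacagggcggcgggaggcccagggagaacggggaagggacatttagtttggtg
CENPF has 4 matches to CCAAT and 1 to TTTGAA, MKI67 has 2 of each and KIF4A 1 of each. In MKI67 one TTTGAA and one ATTGG share a base. These matches describe letters in a window and were not tested as binding sites.

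Replication genes had smaller differences. Of 36 listed genes of G1/S and replication 35 were measured, with a median of −0.24 and 32 below 0, and 2 were lower and 0 higher at an unadjusted p under 0.05 (5.71%, against 2.23% of all genes). MCM10, which helps to start replication forks, was at 4.35, 4.53 and 4.33 in JinB8 arrays and at 4.76, 4.58 and 4.96 in Jurkat arrays (−0.36 ± 0.14). MCM6, a subunit of the replicative helicase, was at −0.37 ± 0.17 and its groups overlapped. The 62 replication-dependent histone genes had a median of −0.084, with 42 below 0 (67.7%, against 53.3% of all genes). At that threshold 3 were lower (4.84%, against 2.23% of all genes), but the H4 pair among them counts as 1 measurement. Besides the H4 pair the 3 include H3C7. It was at 5.83, 6.07 and 6.13 with JinB8 EVs and at 6.49, 6.56 and 6.47 with Jurkat EVs (−0.50 ± 0.15). Histone genes are close copies of one another, and their probes may share signal.

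TGF-beta signals control growth and matrix production in endothelium through paired receptor kinases and SMAD proteins. Of 38 listed genes of this family 37 were measured, 31 of them below 0, where 53.3% of all genes were. The median of the list was −0.15, against −0.017 over all genes and −0.11 without the 50% of genes of lowest mean signal. At an unadjusted p under 0.05, 5 were lower (13.5%, against 2.23% of all genes) and 1 was higher (1.79% of all genes were). Among the ligands, TGFB2 was at 9.21, 9.07 and 9.0 in JinB8 arrays, against 9.63, 9.53 and 9.64 in Jurkat arrays. The groups were apart by −0.51 ± 0.17, and means of 10.41 with IgG beads and 10.18 in untreated cells lay above both. INHBA, the activin A subunit, was at 7.89, 8.13 and 7.76 with JinB8 EVs and at 8.45, 8.26 and 8.30 with Jurkat EVs (−0.41 ± 0.18). TGFBR3, the co-receptor that presents TGFB2, was at −0.51 ± 0.17. The member in the higher direction was FST, the activin-binding inhibitor follistatin, at 0.26 ± 0.12 with overlap. The list also holds THBS1, described further on. TGFBI, a secreted matrix protein and long-known TGF-beta target, was at 7.64, 7.76 and 7.73 in JinB8 arrays, against 7.92, 8.04 and 7.99 in Jurkat arrays. The difference was −0.27 ± 0.10 (−0.14 with repeated quantile normalization), and the means of 8.75 with IgG beads and 8.75 in untreated cells lay above both groups. With quantile normalization repeated, the median of the list was −0.024.

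A minority of matrix genes reached an unadjusted p under 0.05, all of them lower with JinB8 EVs and each by less than 1.5-fold. Of the 37 collagen and collagen-modifying genes, 7 were lower and 0 higher at an unadjusted p under 0.05 (18.9%, against 2.23% of all genes), with a median of −0.091. The lower values were not particular to CD63 capture. With MHC1 capture 16 of these 37 genes were lower and 2 higher at that threshold, with a median of −0.26. Over all 18417 genes 2302 were lower and 3141 higher with MHC1 capture. COL12A1, a collagen that sits on fibril surfaces, was at 5.42, 5.27 and 5.29 in JinB8 arrays and at 5.86, 5.61 and 6.01 in Jurkat arrays (−0.50 ± 0.15). Enzymes that hydroxylate or crosslink collagen were at −0.29 ± 0.12 for LOXL2, −0.27 ± 0.11 for PLOD3 and −0.45 ± 0.19 for P4HA2. The groups did not overlap for LOXL2 and PLOD3 and did for P4HA2. The prolyl 3-hydroxylase genes P3H1, P3H2 and P3H3 were the other members, at −0.23 ± 0.11, −0.39 ± 0.18 and −0.25 ± 0.11. Leaving out 1 array moved P3H2 to −0.17 (without Jurkat replicate 1) and P4HA2 to −0.26 (without JinB8 replicate 3) or −0.69 (without JinB8 replicate 2), and PLOD3 to −0.16 (without JinB8 replicate 1).

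Of the 37 matrix glycoproteins and proteoglycans, 7 were lower (18.9%, against 2.23% of all genes) and 0 higher at that threshold, with a median of −0.11. With MHC1 capture 8 were lower and 2 higher, with a median of −0.090. BGN, the small proteoglycan biglycan, was at 10.81, 10.62 and 10.88 with JinB8 EVs and at 11.26, 11.16 and 11.11 with Jurkat EVs, apart by −0.40 ± 0.13. VCAN, the large proteoglycan versican, was at −0.52 ± 0.18 with overlap, and FBN2, a microfibril protein, at −0.52 ± 0.19 without. EFEMP1, an elastic fibre protein, was at 12.25, 12.38 and 12.16 in JinB8 arrays and at 12.51, 12.50 and 12.61 in Jurkat arrays (−0.27 ± 0.11). The rest of the 7 are TGFBI, THBS1 and MMRN2, which stand under other lists. Of 25 matrix proteases and inhibitors 2 were lower (8%, against 2.23% of all genes). They were the plasminogen activator PLAT at −0.37 ± 0.17 and the protease ADAMTS18 at −0.46 ± 0.21. The letters CAGAC, a SMAD element, were in 16 of 34 promoter windows of the TGF-beta list (47.1%) and 15 of 28 of the matrix glycoprotein list (53.6%), against 45% of all windows. The AP-1 letters TGAGTCA were in 1 (2.94%) and 3 (10.7%), against 4.92% of all. Reverse strands were included.

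**Figure D3:**
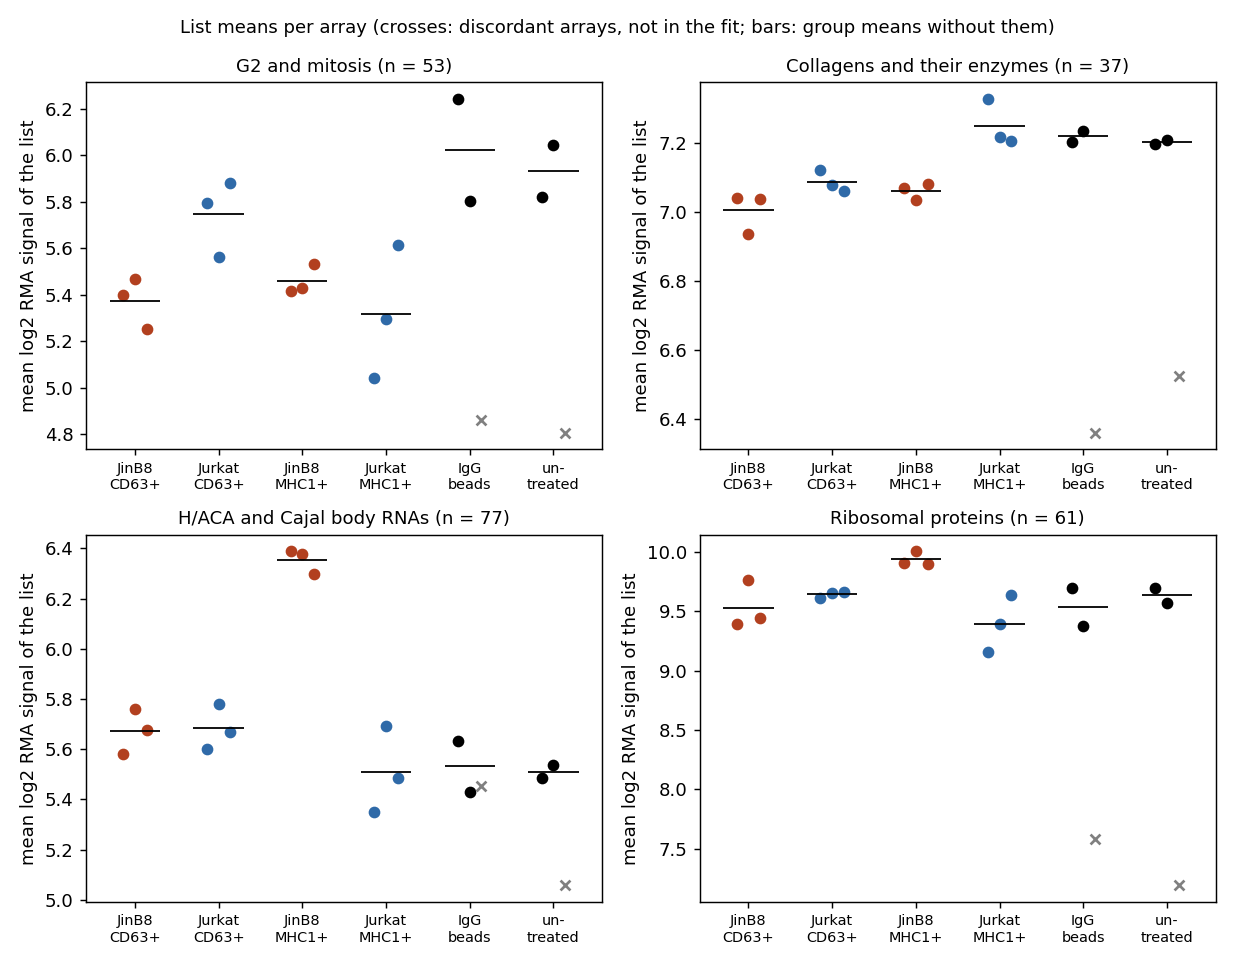
Mean log2 RMA signal of 4 gene lists in every array, by group; points are arrays, bars are group means without the discordant arrays, and crosses are those arrays (untreated 3 and IgG beads 3). The G2 and mitosis mean is 5.25 to 5.47 with JinB8 CD63+ EVs and 5.56 to 5.88 with Jurkat CD63+ EVs, while the H/ACA and Cajal body RNA mean is 5.58 to 5.76 and 5.60 to 5.78.

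In the lists of vessel growth and endothelial identity the members that reached an unadjusted p under 0.05 were lower with JinB8 EVs, apart from CCL21. In the VEGF, angiopoietin and FGF list 3 of 25 were lower (12%, against 2.23% of all genes) and 0 higher, with a median of −0.12. APLN, the gene of the peptide apelin that tip cells secrete, was at 8.76, 8.57 and 8.67 in JinB8 arrays and at 8.94, 8.94 and 8.95 in Jurkat arrays (−0.28 ± 0.11). ANGPT2, the antagonist of angiopoietin-1 at TIE2, was at −0.51 ± 0.22 with overlap, and EFNB2, the arterial ephrin-B2, at −0.38 ± 0.17 (−0.21 without JinB8 replicate 3). KDR, the main VEGF receptor, was at 9.96, 10.11 and 9.89 with JinB8 EVs and at 9.94, 10.02 and 10.05 with Jurkat EVs. The groups overlapped, and the interval of −0.33 to 0.30 bounds its difference to well under 2-fold. Of 23 Notch and tip cell genes 2 were lower (8.70%), APLN and ANGPT2 again, and 0 higher, with a median of −0.029.

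The 31 endothelial identity and junction genes had a median of −0.053, with 2 lower (6.45%) and 0 higher. EMCN, the mucin endomucin, was at 9.70, 9.74 and 9.56 in JinB8 arrays and at 10.12, 9.87 and 10.20 in Jurkat arrays (−0.40 ± 0.14), and MMRN2, a matrix ligand of endothelial cells, was at −0.26 ± 0.11. Among 13 lymphatic and venous fate genes 2 were lower (15.4%) and 1 higher. LYVE1, the hyaluronan receptor of lymphatic endothelium, was at 7.08, 7.39 and 7.41 with JinB8 EVs and at 7.97, 7.69 and 8.0 with Jurkat EVs (−0.59 ± 0.24). PROX1, the factor that sets lymphatic fate, was at −0.37 ± 0.15, while the chemokine gene CCL21 was at 0.47 ± 0.21. The 17 coagulation and fibrinolysis genes had a median of −0.24 with 2 lower (11.8%), PLAT and ENTPD1. ENTPD1 encodes the CD39 enzyme that breaks down extracellular ATP, and was at −0.58 ± 0.21. In the list of YAP targets and actin genes 3 of 27 were lower (11.1%), with a median of −0.14, the actin genes ACTB at −0.26 ± 0.10, ACTG1 at −0.33 ± 0.14 and the matricellular CCN1 at −0.27 ± 0.12.

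The 17 genes around CD47, thrombospondin and nitric oxide had a median of −0.065. At an unadjusted p under 0.05, 1 was lower (5.88%, against 2.23% of all genes) and 0 higher. That gene was THBS1, the CD47 ligand thrombospondin-1, at 12.80, 12.98 and 12.90 in JinB8 arrays and at 13.10, 13.06 and 13.22 in Jurkat arrays. Its groups were apart by −0.23 ± 0.10 (95% interval −0.45 to −0.014), but with repeated quantile normalization the difference was −0.017. The arrays measured endothelial RNA, so they do not check the loss of CD47 in the donor T cells. The endothelial cells' own CD47 was at 8.73, 9.08 and 8.23 with JinB8 EVs and at 8.80, 8.65 and 8.88 with Jurkat EVs. These overlapped, and the difference of −0.10 ± 0.35 has an interval of −0.84 to 0.64, among the wider ones. The model shares the spread over all groups. The SD of CD47 was 0.43 with JinB8 CD63+ EVs, 0.11 with Jurkat CD63+ EVs and 1.01 with Jurkat MHC1+ EVs. NOS3, the endothelial nitric oxide synthase, was at 7.54, 7.10 and 7.49 in JinB8 arrays and at 7.23 in all 3 Jurkat arrays (0.15 ± 0.13). The 29 measured tetraspanin and vesicle genes had a median of −0.081, with CD63 at −0.11 ± 0.14 and TSPAN12, a tetraspanin of Norrin signalling, at −0.65 ± 0.25 with overlap.

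Inflammatory genes at an unadjusted p under 0.05 lay in both directions. Of 32 leukocyte adhesion and inflammatory genes 2 were lower (6.25%, against 2.23% of all genes) and 1 higher at that threshold, with a median of −0.11. IL6 was at 6.48, 6.74 and 6.10 with JinB8 EVs and at 6.87, 6.79 and 6.95 with Jurkat EVs (−0.43 ± 0.14, and −0.26 without JinB8 replicate 3). The TNF family cytokine TNFSF15 was at −0.41 ± 0.14, and CSF3, the granulocyte growth factor, at 7.71, 7.68 and 7.90 in JinB8 arrays and at 7.53, 7.42 and 7.41 in Jurkat arrays (0.31 ± 0.12). The adhesion receptor VCAM1 was at −0.087 ± 0.13, with overlap. The 39 type I interferon-stimulated genes (median −0.12) and 20 interferon-gamma and antigen presentation genes (median −0.15) had 0 members at an unadjusted p under 0.05 in either direction. The same holds for the 15 genes of mesenchymal transition (median −0.080).

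In the lipid synthesis lists PMVK and FASN reached that threshold, in opposite directions. The 16 measured cholesterol synthesis enzymes had a median of 0.12, with 12 above 0 (46.7% of all genes were), and 1 member passed an unadjusted p of 0.05, the mevalonate pathway kinase PMVK at −0.22 ± 0.10. The 10 fatty acid genes had a median of −0.0047. FASN, the fatty acid synthase, was at 8.93, 8.71 and 9.0 in JinB8 arrays and at 8.41, 8.85 and 8.39 in Jurkat arrays (0.33 ± 0.15). Its groups overlapped through replicate 2 of each, and both lay above the means of 7.57 with IgG beads and 7.63 in untreated cells. The 10 sterol sensing and transport genes had a median of −0.040 with 0 members at that threshold.

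Markers of other cells were measured beside these values, since EV preparations can carry RNA of their donor. The 16 T cell markers had a mean per array of 4.38, 4.21 and 4.47 with JinB8 CD63+ EVs and of 4.33, 4.30 and 4.16 with Jurkat CD63+ EVs. Group means were 4.35 with JinB8 CD63+ EVs, 4.26 with Jurkat CD63+ EVs, 4.27 with IgG beads and 4.30 in untreated cells, and the part of donor RNA in the results was not tested. CD3D, a T cell receptor subunit, was at 0.31 ± 0.14. Its means were 3.82 with JinB8 CD63+ EVs and 3.51 with Jurkat CD63+ EVs, against 3.79 with IgG beads and 3.70 in untreated cells. These signals are dim and may hold background. The medians were 0.10 for 10 monocyte markers, 0.11 for 12 fibroblast and smooth muscle markers and 0.041 for 9 epithelium markers. In each list 1 member reached an unadjusted p under 0.05, CSF1R at 0.38 ± 0.17, RGS5 at −0.43 ± 0.19 and GRHL2 at 0.35 ± 0.15. RGS5 was bright in untreated HUVEC too, at a mean of 10.40. CSF1R (means of 4.39 with JinB8 and 4.01 with Jurkat CD63+ EVs) and GRHL2 (4.16 and 3.81) were dim. The 12 endothelium markers had a median of −0.14 and list means of 8.86 to 8.93 with JinB8 EVs and 8.99 to 9.06 with Jurkat EVs, against group means of 9.07 with IgG beads and 8.96 in untreated cells. With the array SD as a covariate the T cell median was −0.066. The endothelium median lay between −0.18 (without JinB8 replicate 2) and −0.012 (with repeated quantile normalization) over the alternatives run.

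Whether the JinB8 minus Jurkat difference depends on the capture was tested as a contrast of 4 group means. With CD63 capture 0 genes were called, and with MHC1 capture 71 genes (0.386%) were, 70 higher and 1 lower, of which 53 were small nucleolar or Cajal body RNAs. The difference between captures itself was called for 3 genes (0.0163%), all small nucleolar RNAs, which guide chemical changes on ribosomal and spliceosomal RNA. SNORA38B was at 5.99, 6.31 and 6.50 with JinB8 CD63+ EVs and at 6.48, 6.36 and 6.01 with Jurkat CD63+ EVs. It was at 8.62, 8.71 and 8.53 with JinB8 MHC1+ EVs, against 6.69, 6.59 and 6.29 with Jurkat MHC1+ EVs. The JinB8 MHC1+ arrays stood alone, and the difference between captures was −2.11 ± 0.23 (limma adjusted p = 0.00255).

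SNORD42A had differences of −0.11 ± 0.12 with CD63 capture and 1.28 ± 0.12 with MHC1 capture, which differ by −1.39 ± 0.17 (limma adjusted p = 0.00783). SNORA37 was at −0.0036 ± 0.16 with CD63 capture and at 1.64 ± 0.16 with MHC1 capture, a difference of −1.64 ± 0.22 (limma adjusted p = 0.0134). The next by p, SNORD37, SNORA14A and SNORD36B, had differences between captures of −1.46 ± 0.24, −1.87 ± 0.31 and −2.23 ± 0.38, each with a limma adjusted p of 0.0709. Over the 77 H/ACA and Cajal body RNAs the median was −0.0036 with CD63 capture and 0.94 with MHC1 capture. Over the 115 C/D box RNAs it was 0.026 with CD63 capture and 0.44 with MHC1 capture. Within CD63 capture, 3 of the 77 H/ACA and Cajal body RNAs were higher and 0 lower at an unadjusted p under 0.05. Over all genes 1.79% were higher and 2.23% lower. The 3 were SNORA80B at 0.70 ± 0.24, SNORA2B at 0.30 ± 0.11 and SNORA70C at 0.37 ± 0.16. The C/D box list had 0 higher and 3 lower (2.61%, near the share of all genes). These were SNORD45C at −0.38 ± 0.15, SNORD53 at −0.52 ± 0.23 and SNORD4A at −0.43 ± 0.20. SNORD53 was at −0.26 without JinB8 replicate 1 and at −0.88 without JinB8 replicate 2.

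Jurkat MHC1+ replicate 1 had an SD of 2.01 and a median correlation of 0.948 with the other arrays. Without it, 15 genes were called between captures, all small nucleolar or Cajal body RNAs whose JinB8 minus Jurkat difference was lower with CD63 capture than with MHC1 capture. With all 18 arrays 0 genes were called between captures, with 450 at an unadjusted p under 0.05. Leaving out any 1 array of the 4 EV groups gave 1 to 4682 genes between captures, the highest without Jurkat MHC1+ replicate 3. The G2 and mitosis list had medians of −0.39 with CD63 capture and 0.11 with MHC1 capture, and 0 of its 53 genes were called between captures.

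**Figure D4:**
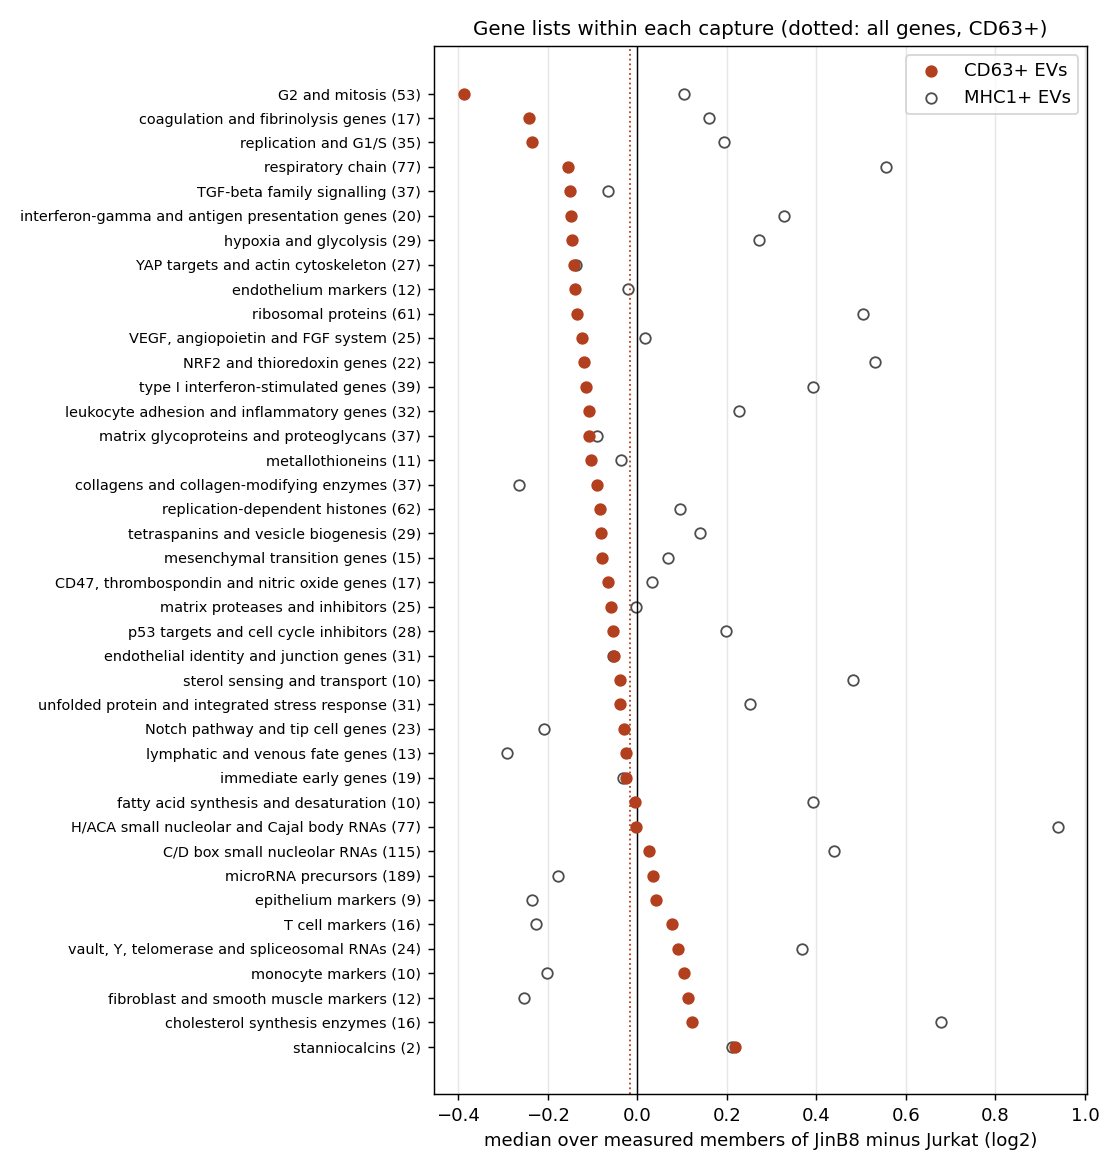
Median JinB8 minus Jurkat difference (log2 RMA) over the measured members of each gene list (number in parentheses), with CD63+ EVs (filled) and MHC1+ EVs (open); the dotted line is the median of all genes with CD63+ EVs, −0.017. With CD63+ EVs the medians lie between −0.39 (G2 and mitosis) and 0.22 (the 2 stanniocalcins), and with MHC1+ EVs they reach 0.94 for the H/ACA and Cajal body RNAs.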

How the data were processed

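Groups were taken from the bracketed sample names of 18 Affymetrix whole-transcript arrays, 3 per group. Per the submitters' processing notes, the authors used RMA in Affymetrix Expression Console, versions not given in the sources used here. The deposited values were read as log2 RMA signal from their range, since the table states no scale. How many arrays a group has, and how far they spread, limits the precision, as depth in reads is not defined for them.

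Of 33297 probe sets, 12083 had no gene symbol and 1754 had several in the platform annotation, and they were left out. Among the 19460 with 1 symbol, each gene was represented by its probe set of highest mean over 18 arrays, which left 18417 genes, 769 of them with more than 1 probe set. No detection calls were analysed here.

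Group means were fitted to 16 arrays in R 4.3.3 with lmFit and eBayes of limma 3.58.1 (10 residual degrees of freedom). Tests were two-sided moderated t tests with Benjamini-Hochberg adjustment over all genes, called at an adjusted p under 0.05. They were also run on simulated data with known shifts and, for each gene, the same spread in every group. The real groups spread unequally, so the simulation does not show how the tests behave on them. Named are the 6 genes with the smallest unadjusted p in each direction, since none was called, up to 4 members of each list by p, 11 genes set by name (such as CD47, THBS1 and STC1) and the 6 with the smallest p between captures. One gene that this rule names is not reported here. Further list members were named after their values were seen. The members and lists were chosen with earlier results of these data known. Promoter letters were searched in Python 3.11.15 with pandas 2.3.3, and plots were drawn with matplotlib 3.10.9.

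Alternatives were other sets of arrays, the array SD as a covariate, other normalization, weights, filters and probe set rules, a 1.5-fold minimum and leaving out each array. Serial numbers run group by group, so that a batch and a group cannot be told apart.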

Additional observations from a re-analysis of the deposited data

Results flagged for a closer look

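For 3 small nucleolar RNAs the JinB8 minus Jurkat difference was not the same in both captures by a test of that difference in limma. The difference with CD63+ EVs minus that with MHC1+ EVs was −2.11 ± 0.23 for SNORA38B, −1.39 ± 0.17 for SNORD42A and −1.64 ± 0.22 for SNORA37 (log2). Their adjusted p in limma was 0.00255, 0.00783 and 0.0134. All 3 were higher with JinB8 MHC1+ EVs than with Jurkat MHC1+ EVs in 3 of 3 arrays, and their CD63+ groups overlapped. These results rest on the 3 JinB8 MHC1+ arrays whose free text numbers the line differently.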

How the results depend on the processing

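The count of 0 genes called within CD63 capture held under all 20 alternatives, with 47 (all 18 arrays) to 3860 genes (array weights) at an unadjusted p under 0.05 and a smallest adjusted p of 0.0658 with array weights. Leaving out 1 array gave 326 (without Jurkat CD63+ replicate 3), 330 (without JinB8 CD63+ replicate 3), 476 (without Jurkat CD63+ replicate 1), 2492 (without JinB8 CD63+ replicate 2) or 1648 (without Jurkat MHC1+ replicate 1) such genes. Of 91 genes named, 85 kept their direction under every alternative run, and 25 moved by over 1.5 times with some 1 array left out, 32 with the array SD as a covariate and 22 with repeated quantile normalization. CD47 was at 0.39 with the array SD as a covariate, 0.022 with repeated quantile normalization and between −0.30 and 0.13 with 1 array left out. The same 3 settings gave CD63 at 0.059, 0.053 and between −0.22 and 0.0020. They gave KDR at 0.14, 0.10 and between −0.078 and 0.033, and at 0.0040 with centred arrays. They gave SNORA37 at 0.069, 0.12 and between −0.054 and 0.057, and at 0.016 with centred arrays. SNORA38B was at 0.054 with repeated quantile normalization, 0.0061 with centred arrays and between −0.15 and 0.13 with 1 array left out, where SNORD42A lay between −0.17 and 9e-04. With repeated quantile normalization the medians of TGF-beta, collagen and matrix glycoprotein genes were −0.024, −0.038 and −0.046.

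The 71 genes called within MHC1 capture became 6 with all 18 arrays, 43 with 12 arrays, 39 with a term for array SD, 11528 with array weights, 35 with repeated quantile normalization and 33 without the lowest 50% of genes. Leaving out 1 array gave 22 to 5677, the highest without Jurkat MHC1+ replicate 3, and 27, 22 and 34 without JinB8 MHC1+ replicates 1, 2 and 3. The 3 genes called between captures became 0 with all 18 arrays and with repeated quantile normalization (450 and 4463 at an unadjusted p under 0.05 in limma), 15 with 15 arrays and 8606 with array weights. Leaving out 1 array gave 1 to 4682, the highest without Jurkat MHC1+ replicate 3, with 15 and 9 without Jurkat MHC1+ replicates 1 and 2, 11 and 5 without Jurkat CD63+ replicates 1 and 2, 1786 without JinB8 CD63+ replicate 2, 2 without JinB8 CD63+ or JinB8 MHC1+ replicate 1 and 1 without JinB8 MHC1+ replicate 2. With array weights, Jurkat MHC1+ replicate 2 took a weight of 75.9. The causes were not tested. No paired analysis was possible because the labels carry no replicate numbers, and numbers given here only name arrays. Signals had no detection calls, so values of dim genes may hold background.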

Other observations

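Further lists held between 0 and 9 members at an unadjusted p under 0.05 between JinB8 CD63+ and Jurkat CD63+ EVs, where 4.02% of all genes were. The 189 microRNA precursors had a median JinB8 minus Jurkat difference of 0.034, with 5 higher and 4 lower at an unadjusted p under 0.05. The 24 vault, Y, telomerase and spliceosomal RNAs had a median of 0.090 with 1 higher, the U5 spliceosomal RNA gene RNU5B-1 at 0.50 ± 0.22. The 31 genes of the unfolded protein and integrated stress response had a median of −0.040 with 1 lower, the disulfide isomerase gene PDIA4, at 8.66, 8.74 and 8.64 in JinB8 arrays and at 8.92, 8.88 and 9.07 in Jurkat arrays (−0.28 ± 0.11). Among 11 metallothioneins, which bind zinc and copper, 1 was lower, MT1X at −0.32 ± 0.14, with a median of −0.10 over the list.

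The lists with 0 members at that threshold were the respiratory chain (77 genes, median −0.16), ribosomal proteins (61 genes, −0.14), hypoxia and glycolysis (29 genes, −0.15), NRF2 and thioredoxin genes (22 genes, −0.12), p53 targets (28 genes, −0.054) and immediate early genes (19 genes, −0.025). Ribosomal protein means were 9.39, 9.76 and 9.44 in the JinB8 CD63+ arrays and 9.62, 9.66 and 9.67 in the Jurkat CD63+ arrays, so the JinB8 group spread to both sides of the Jurkat group. None of the genes in this section was called in limma, where each has an adjusted p of 0.874 or more.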
